A study of Mus musculus with 7 samples.

Results

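The 49 genes described here encode proteins that build ribosomes in the nucleolus. They were named from knowledge of the pathway, but with earlier results of these data known. Each was read from the deposited expression table through 1 probe set. That was the brightest on average across the 7 arrays, taken from those annotated with exactly 1 gene symbol. All 49 were measured, out of 18193 genes. They fall into 6 genes of RNA polymerase I transcription, 8 of small nucleolar ribonucleoproteins (snoRNPs), 15 of small subunit processing, 14 of large subunit processing and 6 nucleolar proteins with several roles.

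RNA polymerase I transcribes the ribosomal RNA precursor in the nucleolus. snoRNPs then modify this RNA at particular sites or guide its cleavage. Processing factors cut, fold and pack it with ribosomal proteins into the small and large subunits. Growing and dividing cells depend on this pathway, and MYC, which activated NOTCH1 is known to induce in T-cell leukemia, is a known activator of many of its genes.

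The series compared mouse T-cell acute lymphoblastic leukemias of 2 kinds on Affymetrix arrays, 1 array per cell suspension. One group held 3 arrays of bone marrow cells from terminally ill C57Bl/6 mice with leukemia induced by ICN1, an activated form of NOTCH1. The other held 4 arrays of thymus cells from terminally ill C57Bl/6 mice with leukemia induced by TEL-JAK2, a constitutively active kinase fusion. Both tissues were crushed or dissociated in the cold, filtered and lysed as whole suspensions, and no sorting step is named. Genotype and tissue cannot be told apart, because each leukemia came from 1 tissue. The labels do not say how ICN1 or TEL-JAK2 was expressed or how old the mice were. The sample titles carry different identifiers but do not state that each is a separate animal, so p-values measure only the spread between these samples.

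Values are deposited log2 expression values, differences are ICN1 minus TEL-JAK2 with the standard error (SE) of the limma fit, and array values follow the order ICN1 1 to 3 and TEL-JAK2 1 to 4. Calls required p under 0.05 after Benjamini-Hochberg adjustment across the 18193 genes. Correlations between arrays over all genes were 0.973 to 0.982 within ICN1, 0.975 to 0.989 within TEL-JAK2 and 0.921 to 0.944 between the groups. Some arrays held a mixture of sex-linked transcripts. Xist, the RNA of the inactive X chromosome, was at 11.51, 11.78 and 12.09 in ICN1 and at 13.25, 13.12, 13.36 and 5.19 in TEL-JAK2, while Y-linked Eif2s3y was at 8.93, 9.41 and 3.25 in ICN1 and at 3.21, 3.18, 3.29 and 10.23 in TEL-JAK2. ICN1 1 and ICN1 2 therefore carried both transcripts. Differences are also given without them, an alternative chosen after seeing the data, which leaves ICN1 3 as the only ICN1 array. The defining T lineage genes Cd3d and Cd3g were high in both groups, with means of 13.20 and 12.26 in ICN1 and 13.71 and 12.94 in TEL-JAK2.

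The letters CACGTG, the E-box that MYC and related factors can bind, were searched in the promoter windows of these genes, since they carry the link to MYC that the pathway is known for. The windows cover 250 bases before to 50 bases after the start site in RefSeq, build GRCm38.p6, and 44 of the 49 genes had a window. CACGTG reads the same on both strands, so 1 search covers both. It stood in the windows of 10 of the 44 genes (22.7%), against 10.2% of the 14452 array genes that have a window. Of the genes called higher in ICN1 below, 3 of 22 held it (13.6%), and of the genes not called, 7 of 22 held it (31.8%). Each sequence shown runs 5′ to 3′ on the gene's strand with the motif in capitals, and the windows are those of the 3 called genes and, of the 7 uncalled genes that hold it, the 3 with the smallest adjusted p.
Grwd1: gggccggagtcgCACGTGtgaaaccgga
Tsr1: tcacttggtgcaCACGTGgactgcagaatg
Utp20: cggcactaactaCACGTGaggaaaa
Mybbp1a: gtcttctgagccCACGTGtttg
Nop2: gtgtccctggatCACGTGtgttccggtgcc
Ltv1: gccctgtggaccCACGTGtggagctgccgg

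The stretch of Grwd1 is chr7:45830740-45830767 on the minus strand, and that of Utp20 is chr10:88826765-88826789, also minus. Tsr1 lies at chr11:74898092-74898121 and Mybbp1a at chr11:72441355-72441376, both on the plus strand. Nop2 lies at chr6:125131811-125131840 on the plus strand and Ltv1 at chr10:13193092-13193121 on the minus strand. In Grwd1, Tsr1, Utp20, Mybbp1a and Ltv1 the motif began 34, 24, 37, 40 and 28 bases downstream of the start site, and in Nop2 it stood upstream. Across the 10 genes, 7 of the 10 motifs began at or after the start site (70%), against 229 of 1761 motifs (13%) in the windows of array genes. The other genes with the motif were Imp4, Pes1, Utp18 and Wdr43. CCAAT was found in 16 of 44 genes (36.4%, against 42.0% of array genes), TATAAA in 3 (6.82% against 11.5%), AAGATGG in 3 (6.82% against 7.54%) and GCATGCG in 3 (6.82% against 5.86%), each searched on both strands. These are matches of letters, and no binding was measured.

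Messages of many of these 49 genes, a list chosen with earlier results of these data known, were more abundant in the ICN1 marrow leukemias. Of the 49 genes, 25 were called higher in ICN1 (51.0%, against 12.2% of all genes), 0 were called lower (against 11.9%) and 24 were not called. With every array centred on its mean of the T-cell receptor genes Cd3d, Cd3e, Cd3g and Cd247 (CD3 centring), 48 were called higher and 0 lower, but 62.7% of all genes were then called higher and 4.33% lower, and the median of all genes was 0.58. This centring adds the same 0.62 to the difference of every gene. Without it, the difference was above 0 for 48 genes (against 43.9% of all genes), the exception being Imp3. The median difference was 0.68, or 1.61-fold, beside -0.04 for all genes. The groups did not overlap for 30 genes that were higher in ICN1 (61.2%, against 15.9% of all genes) and for 0 that were lower (against 18.4%). Beyond that, 14 genes were both called and at least 2-fold higher (against 6.1%). In bulk samples, fewer cells that express a gene and less RNA of it per cell cannot be told apart.

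Since these genes are bright, they were also set beside genes above a floor of brightness, which does not match their levels. Among the 8115 genes at least as bright as the dimmest of the 49, 19.9% were called higher and the median difference was -0.03. A test against a 1.5-fold difference called 3 of the 49, namely Polr1b, Rcl1 and Pa2g4 (against 3.69% of all genes). Without ICN1 1, without ICN1 3 or without TEL-JAK2 1, 16 of the 49 were called, and without both ICN1 1 and ICN1 2, 19 were called (against 8.56% of all genes) with a median of 0.98. Of the 25 called genes, 15 were called whichever array was left out.

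**Figure D1:**
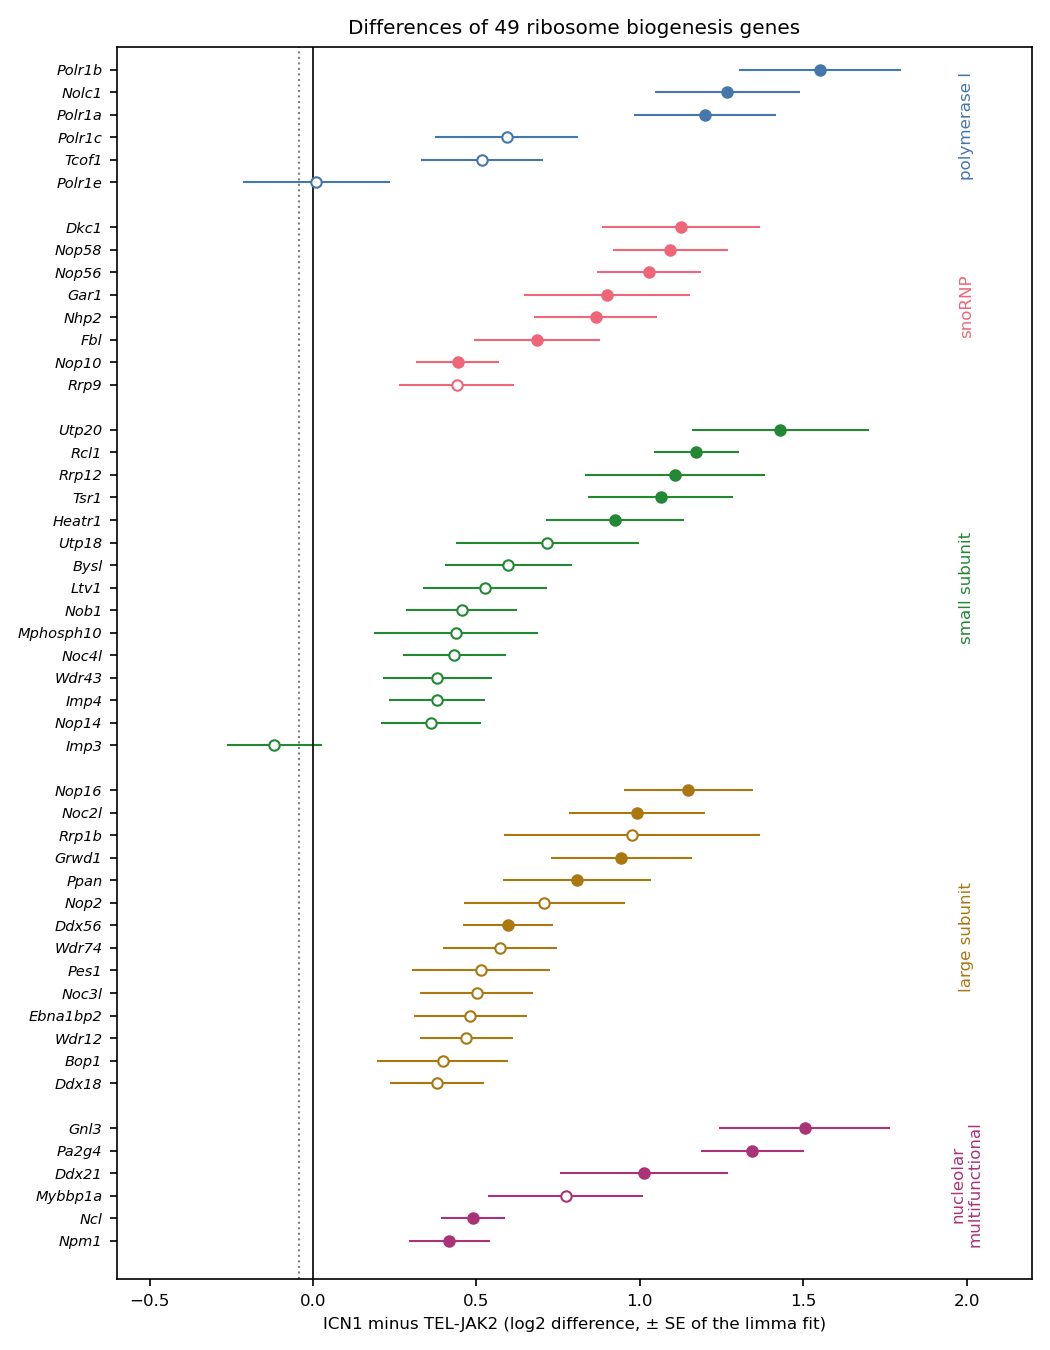
Difference between ICN1 and TEL-JAK2 (log2, x axis, bars ± SE of the limma fit) for each of the 49 genes, grouped by role, with filled points for genes at an adjusted p under 0.05 and a dotted line at the median of all genes (-0.04). All points except Imp3 lie above 0, and the 25 filled points all lie to the right; with CD3 centring 48 were called, as were 62.7% of all genes.

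The polymerase I class held both called and uncalled genes. Polr1b, Nolc1 and Polr1a were called higher in ICN1, by 2.93-, 2.41- and 2.30-fold, and the other 3 of the 6, Polr1c, Polr1e and Tcof1, were not called. The class median was 0.90. Polr1b, the partner of Polr1a in the catalytic core, measured 8.81, 8.51 and 9.25 in ICN1 and 6.98, 7.46, 7.03 and 7.76 in TEL-JAK2. Every ICN1 array was above every TEL-JAK2 array, and the difference was 1.55 ± 0.25 (adjusted p = 0.00448), the largest among the 49. Nolc1, a nucleolar phosphoprotein that binds snoRNPs and polymerase I, measured 10.62, 10.39 and 10.99 in ICN1 and 9.26, 9.43, 9.04 and 9.86 in TEL-JAK2, again without overlap (1.27 ± 0.22, adjusted p = 0.00650).

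Polr1a encodes the largest subunit, which holds much of the active site. It measured 8.72, 8.58 and 9.09 in ICN1 and 7.25, 7.77, 7.36 and 8.01 in TEL-JAK2, without overlap (1.20 ± 0.22, adjusted p = 0.00737). Polr1e, a subunit of the heterodimer that assists initiation and elongation, went apart from them. Its values of 8.12, 7.99 and 8.89 in ICN1 lay around the TEL-JAK2 values of 8.33, 8.39, 8.08 and 8.49. ICN1 3 was the highest array and ICN1 2 the lowest, and the difference of 0.01 ± 0.22 (adjusted p = 0.981) turned to -0.27 without ICN1 3 and to -0.07 without TEL-JAK2 3. It was also just below 0 with median centring, with quantile normalization applied again and with array weights (-0.04, -0.01 and -0.09). Polr1c, which polymerase I shares with polymerase III, differed by 0.59 ± 0.22 (adjusted p = 0.0939), while its further probe set was called at 0.73 ± 0.17 (adjusted p = 0.0219). Tcof1, the treacle protein of ribosomal DNA, differed by 0.52 ± 0.19 (adjusted p = 0.0879). Without ICN1 2, Polr1c and Tcof1 were both called (adjusted p = 0.0344 for Polr1c and 0.0113 for Tcof1), which gives 5 of 6.

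**Figure D2:**
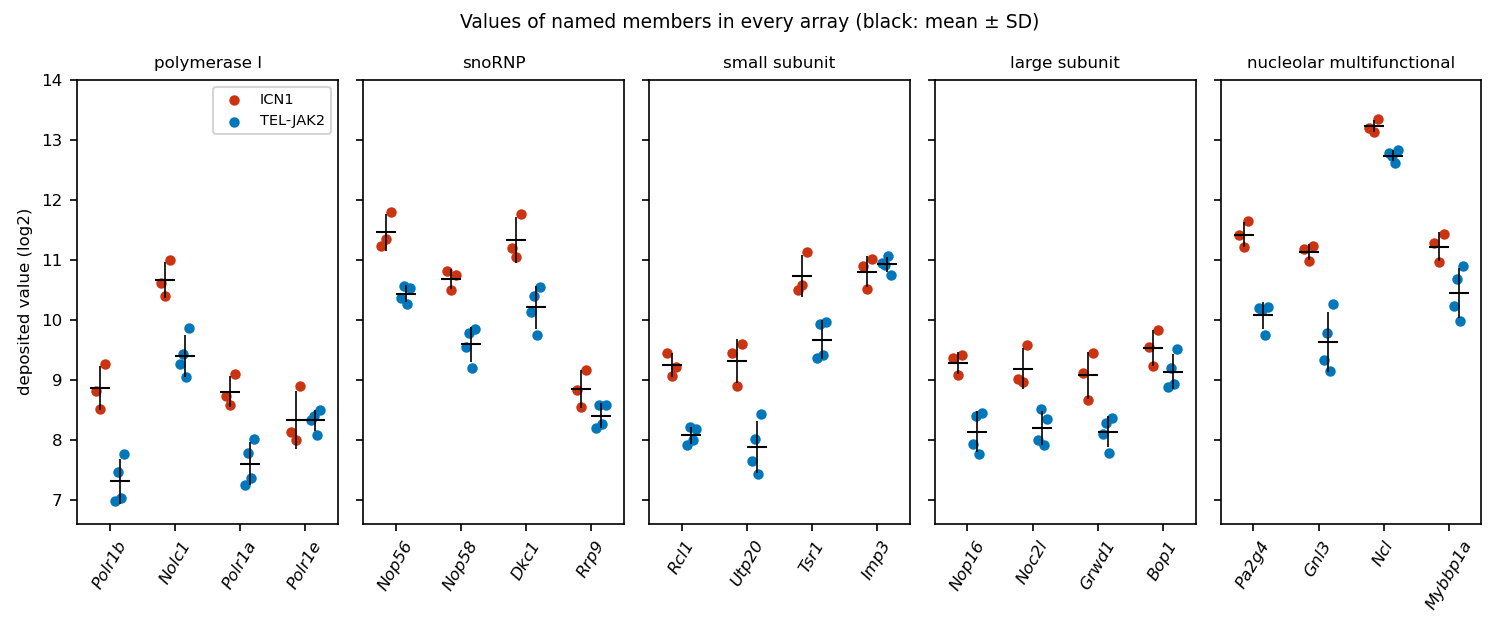
Deposited log2 values (y axis) of the 3 called genes with the smallest adjusted p and the 1 gene with the largest in each class, 1 point per array, ICN1 in red and TEL-JAK2 in blue, with the mean ± SD in black. Levels are comparable within a gene only; Polr1b and Gnl3 show wide gaps between the groups, while the points of Polr1e and Imp3 overlap.

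At an adjusted p under 0.05 on all 7 arrays, the snoRNP class had the highest share of called genes. Of its 8 genes, 7 were called higher and Rrp9 was not (87.5% called, class median 0.88), and both kinds of particle took part. Nop56 and Nop58, the paired scaffold proteins of box C/D particles that guide RNA methylation, were 2.04- and 2.13-fold higher in ICN1. Dkc1, the pseudouridine synthase of H/ACA particles, was 2.18-fold higher. Nop56 measured 11.22, 11.35 and 11.80 in ICN1 and 10.37, 10.57, 10.26 and 10.53 in TEL-JAK2 (1.03 ± 0.16, adjusted p = 0.00399). Nop58 measured 10.81, 10.50 and 10.74 in ICN1 and 9.54, 9.78, 9.19 and 9.84 in TEL-JAK2 (1.09 ± 0.18, adjusted p = 0.00453). Neither gene's groups overlapped, and TEL-JAK2 3 was the lowest array for both.

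Dkc1 measured 11.19, 11.04 and 11.76 in ICN1 and 10.12, 10.40, 9.74 and 10.55 in TEL-JAK2, without overlap (1.13 ± 0.24, adjusted p = 0.0145). Its partner Nhp2, which binds the guide RNA, differed by 0.86 ± 0.19 (adjusted p = 0.0154). The calls of these 4 genes held whichever array was left out. The other H/ACA proteins, Gar1 and Nop10, differed by 0.90 ± 0.25 (adjusted p = 0.0395) and 0.44 ± 0.13 (adjusted p = 0.0415), and the methyltransferase Fbl by 0.68 ± 0.19 (adjusted p = 0.0396). Their calls were lost in most of the fits that left out 1 array. Fbl and Gar1 lost theirs without any 1 array except TEL-JAK2 4 (adjusted p from 0.0615 to 0.111 for Fbl and from 0.0733 to 0.107 for Gar1). Nop10 lost its call without any 1 array except TEL-JAK2 2 and TEL-JAK2 4 (adjusted p from 0.0649 to 0.126).

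Rrp9 belongs to the U3 particle, which guides cleavage rather than modification. It measured 8.83, 8.54 and 9.16 in ICN1 and 8.19, 8.57, 8.26 and 8.58 in TEL-JAK2, so that ICN1 2 lay among the TEL-JAK2 arrays (0.44 ± 0.18, adjusted p = 0.118). The class count was 4 without ICN1 1, ICN1 2, ICN1 3, TEL-JAK2 1 or TEL-JAK2 3. Its share was not the highest under every alternative. At an adjusted p under 0.01, 2 of the 8 snoRNP genes and 3 of the 6 polymerase I genes were called. With a per-gene Welch test the counts were 1 and 3, and without ICN1 2 they were 4 and 5.

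In small subunit processing, 5 of 15 genes were called higher in ICN1 (33.3%, class median 0.53), and 10 were not called. The 5 act at different steps. Rcl1, needed for cleavage of the precursor, was 2.25-fold higher. Utp20 and Heatr1 are large scaffold proteins of the small subunit processome, the particle that forms on the nascent precursor, and were 2.69- and 1.90-fold higher. Tsr1 and Rrp12 act on the late particle and its export, and were 2.09- and 2.15-fold higher.

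Rcl1 measured 9.45, 9.06 and 9.22 in ICN1 and 7.91, 8.21, 7.99 and 8.18 in TEL-JAK2 (1.17 ± 0.13, adjusted p = 0.00102), the smallest adjusted p of the 49. Utp20 measured 9.44, 8.90 and 9.59 in ICN1 and 7.65, 8.01, 7.43 and 8.43 in TEL-JAK2 (1.43 ± 0.27, adjusted p = 0.00878). Tsr1 measured 10.49, 10.57 and 11.12 in ICN1 and 9.35, 9.93, 9.42 and 9.96 in TEL-JAK2 (1.06 ± 0.22, adjusted p = 0.0131). The groups did not overlap for these 3 genes, and their calls held whichever array was left out.

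Heatr1 measured 9.93, 9.71 and 10.29 in ICN1 and 8.84, 9.18, 8.75 and 9.45 in TEL-JAK2 (0.92 ± 0.21, adjusted p = 0.0181). Rrp12 measured 7.48, 7.11 and 8.03 in ICN1 and 6.23, 6.57, 6.03 and 6.90 in TEL-JAK2 (1.11 ± 0.27, adjusted p = 0.0250). Their groups did not overlap either, but the calls were lost in some of the fits that left out 1 array. Heatr1 lost its call without ICN1 3 or TEL-JAK2 1 (adjusted p from 0.0522 to 0.0528), and Rrp12 without ICN1 1, ICN1 3, TEL-JAK2 1 or TEL-JAK2 3 (adjusted p from 0.0574 to 0.0689).

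Imp3 was the only one of the 49 genes with a difference below 0. It is a component of the Mpp10 complex, which holds the U3 particle on the precursor. Its values were 10.90, 10.50 and 11.01 in ICN1 and 10.95, 10.91, 11.07 and 10.75 in TEL-JAK2, so that the groups overlapped (-0.12 ± 0.14, adjusted p = 0.611). The difference was 0.03 without ICN1 2, 0.09 without ICN1 1 and ICN1 2, and 0.50 (adjusted p = 0.0466) with CD3 centring, which adds 0.62 to every gene. Its partners Imp4 and Mphosph10 differed by 0.38 ± 0.15 (adjusted p = 0.107) and 0.44 ± 0.25 (adjusted p = 0.259), so 0 of the 3 genes of this complex were called, a grouping noticed after the values were seen. A further probe set of Imp4 was called, at 0.73 ± 0.13 (adjusted p = 0.00857), and another was not, at 0.04 ± 0.15 (adjusted p = 0.903).

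The remaining small subunit genes lay between 0.36 and 0.72. Utp18 of the processome differed by 0.72 ± 0.28 (adjusted p = 0.110), with ICN1 values of 9.57, 9.15 and 10.38 that spread widely. Bysl and Ltv1, factors of the late small subunit, differed by 0.60 ± 0.19 (adjusted p = 0.0631) and 0.53 ± 0.19 (adjusted p = 0.0901), and Ltv1 was the only uncalled gene of the class whose groups did not overlap. Nob1, the nuclease that trims the small subunit RNA at its end, differed by 0.46 ± 0.17 (adjusted p = 0.0978). Nop14 and Noc4l, which bind each other, differed by 0.36 ± 0.15 (adjusted p = 0.134) and 0.43 ± 0.16 (adjusted p = 0.0922), and Wdr43 by 0.38 ± 0.17 (adjusted p = 0.150). Without ICN1 2, Utp18 (adjusted p = 0.0406), Imp4 (0.0454) and Bysl (0.0361) were called, and without TEL-JAK2 4, Noc4l was (0.0420). The class count ran from 3, without ICN1 3 or TEL-JAK2 1, to 8, without ICN1 2.

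In large subunit processing, 5 of 14 genes were called higher in ICN1 (35.7%, class median 0.58), and the groups did not overlap for 8. Nop16, a factor of the early large subunit, was 2.22-fold higher, and Noc2l, which forms complexes that carry the large subunit precursor, 1.99-fold. Grwd1, a chaperone for a ribosomal protein, Ppan and the helicase Ddx56 were 1.92-, 1.75- and 1.51-fold higher.

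Nop16 measured 9.36, 9.07 and 9.41 in ICN1 and 7.93, 8.39, 7.75 and 8.45 in TEL-JAK2 (1.15 ± 0.20, adjusted p = 0.00603). Noc2l measured 9.01, 8.95 and 9.58 in ICN1 and 7.99, 8.51, 7.91 and 8.35 in TEL-JAK2 (0.99 ± 0.21, adjusted p = 0.0134). Neither overlapped, and both were called whichever array was left out. Grwd1 measured 9.12, 8.66 and 9.44 in ICN1 and 8.10, 8.28, 7.78 and 8.36 in TEL-JAK2 (0.94 ± 0.21, adjusted p = 0.0181). Its groups did not overlap, and the call was lost without ICN1 1 or TEL-JAK2 1 (adjusted p from 0.0505 to 0.0559).

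Ppan measured 9.15, 8.92 and 9.69 in ICN1 and 8.12, 8.67, 8.27 and 8.71 in TEL-JAK2 (0.81 ± 0.23, adjusted p = 0.0386). Ddx56 measured 8.84, 8.59 and 8.91 in ICN1 and 8.10, 8.19, 8.001 and 8.45 in TEL-JAK2 (0.60 ± 0.14, adjusted p = 0.0189). For both, the lowest ICN1 array was ICN1 2 and the highest TEL-JAK2 array was TEL-JAK2 4, with no overlap. Ppan lost its call without any 1 array except ICN1 2 and TEL-JAK2 4 (adjusted p from 0.0545 to 0.0934), and Ddx56 without ICN1 1, ICN1 3 or TEL-JAK2 1 (adjusted p from 0.0552 to 0.0620).

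Bop1, Pes1 and Wdr12 form the PeBoW complex of large subunit maturation, and 0 of the 3 were called, a grouping noticed after the values were seen. Bop1 measured 9.54, 9.23 and 9.82 in ICN1 and 8.88, 9.20, 8.94 and 9.52 in TEL-JAK2 (0.40 ± 0.20, adjusted p = 0.205). Pes1 measured 9.53, 9.54 and 10.22 in ICN1 and 9.07, 9.35, 9.04 and 9.53 in TEL-JAK2 (0.51 ± 0.21, adjusted p = 0.125). In both, TEL-JAK2 4 was the highest array of its group and reached into the ICN1 range. Wdr12 measured 9.93, 9.83 and 9.90 in ICN1 and 9.68, 9.23, 9.57 and 9.19 in TEL-JAK2, without overlap and with TEL-JAK2 4 lowest (0.47 ± 0.14, adjusted p = 0.0502). It was called without TEL-JAK2 1 (adjusted p = 0.0350), with quantile normalization applied again (0.0393) and with cyclic loess (0.0370).

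The other uncalled large subunit genes lay between 0.38 and 0.98. Rrp1b had a large difference and a wide spread, with 9.41, 8.90 and 10.11 in ICN1 and 8.10, 8.86, 7.87 and 9.16 in TEL-JAK2 (0.98 ± 0.39, adjusted p = 0.120). Its 2 further probe sets were called, at 1.03 ± 0.21 (adjusted p = 0.0134) and 0.96 ± 0.24 (adjusted p = 0.0303). Nop2, an RNA methyltransferase, differed by 0.71 ± 0.25 (adjusted p = 0.0797), Wdr74 by 0.57 ± 0.17 (adjusted p = 0.0511), Noc3l, the partner of Noc2l, by 0.50 ± 0.17 (adjusted p = 0.0763), Ebna1bp2 by 0.48 ± 0.17 (adjusted p = 0.0867) and the helicase Ddx18 by 0.38 ± 0.15 (adjusted p = 0.104). Without ICN1 2, Nop2 (adjusted p = 0.0266), Ddx18 (0.0293), Ebna1bp2 (0.0464) and Noc3l (0.00967) were called, and without TEL-JAK2 4, Wdr74 was (0.0303). The class count was 2 without ICN1 1, 3 without ICN1 3 or TEL-JAK2 1, and 9 without ICN1 2.

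Among the nucleolar proteins with several roles, 5 of 6 were called higher in ICN1 (83.3%, class median 0.89), and the groups overlapped for none of the 6. Gnl3, the nucleostemin GTPase, was 2.84-fold higher, and Pa2g4, a nucleolar growth regulator, 2.54-fold. Ddx21, a helicase active in both transcription and processing, was 2.02-fold higher. Ncl and Npm1, nucleolin and nucleophosmin, were 1.40- and 1.34-fold higher.

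Pa2g4 measured 11.41, 11.21 and 11.64 in ICN1 and 10.20, 10.15, 9.74 and 10.22 in TEL-JAK2 (1.34 ± 0.16, adjusted p = 0.00128). Gnl3 measured 11.19, 10.98 and 11.23 in ICN1 and 9.32, 9.78, 9.15 and 10.26 in TEL-JAK2 (1.505 ± 0.26, adjusted p = 0.00636). Ncl measured 13.20, 13.14 and 13.34 in ICN1 and 12.78, 12.73, 12.61 and 12.84 in TEL-JAK2 (0.49 ± 0.10, adjusted p = 0.0112). TEL-JAK2 3 was the lowest array for these 3 genes, and their calls held whichever array was left out. The 4 further probe sets of Ncl were also called higher, as were 3 of the 4 further probe sets of Pa2g4.

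Ddx21 measured 10.08, 9.88 and 10.61 in ICN1 and 8.92, 9.26, 8.82 and 9.70 in TEL-JAK2 (1.01 ± 0.26, adjusted p = 0.0270). Npm1 measured 13.22, 13.28 and 13.43 in ICN1 and 12.94, 12.95, 12.63 and 13.04 in TEL-JAK2 (0.42 ± 0.12, adjusted p = 0.0477). Ddx21 lost its call without any 1 array except ICN1 2 and TEL-JAK2 4 (adjusted p from 0.0570 to 0.0750), and its further probe set was not called, at 0.65 ± 0.24 (adjusted p = 0.105). Npm1 lost its call without any 1 array except TEL-JAK2 4 (adjusted p from 0.0773 to 0.127), with quantile normalization applied again (0.0504), with median centring (0.0760) and with array weights (0.0531), although a further probe set of it was called at 0.59 ± 0.16 (adjusted p = 0.0394).

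Mybbp1a, a nucleolar MYB-binding protein, measured 11.27, 10.96 and 11.43 in ICN1 and 10.24, 10.68, 9.98 and 10.89 in TEL-JAK2. The groups did not overlap, but the difference was not called (0.77 ± 0.24, adjusted p = 0.0529). It was called without TEL-JAK2 4 (adjusted p = 0.0257), with median centring (0.0436), with array weights (0.0436) and with trend and robust moderation (0.0462), and its further probe set was called at 1.17 ± 0.29 (adjusted p = 0.0277). The class count was 3 without ICN1 1, ICN1 3, TEL-JAK2 1, TEL-JAK2 2 or TEL-JAK2 3.

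The shares of called genes thus ran from 33.3% in small subunit processing to 87.5% among snoRNP genes, and the difference between classes was not tested. Probe sets beyond the 1 used per gene were fitted singly. The 49 genes had 54 further probe sets, on 33 genes, of which 31 were called higher and 0 lower (against 10.3% of all probe sets called higher). Of the further probe sets, 22 of 29 on called genes were called, and 9 of 25 on uncalled genes. Those 9 belonged to Imp4, Mybbp1a, Noc3l, Noc4l, Polr1c, Rrp1b and Wdr43. The called genes with a further probe set that was not called were Ddx21, Heatr1, Nolc1, Nop16, Pa2g4 and Polr1a. With the mean of all probe sets of a gene, 32 of the 49 genes were called higher (against 12.3% of all genes).

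**Figure D3:**
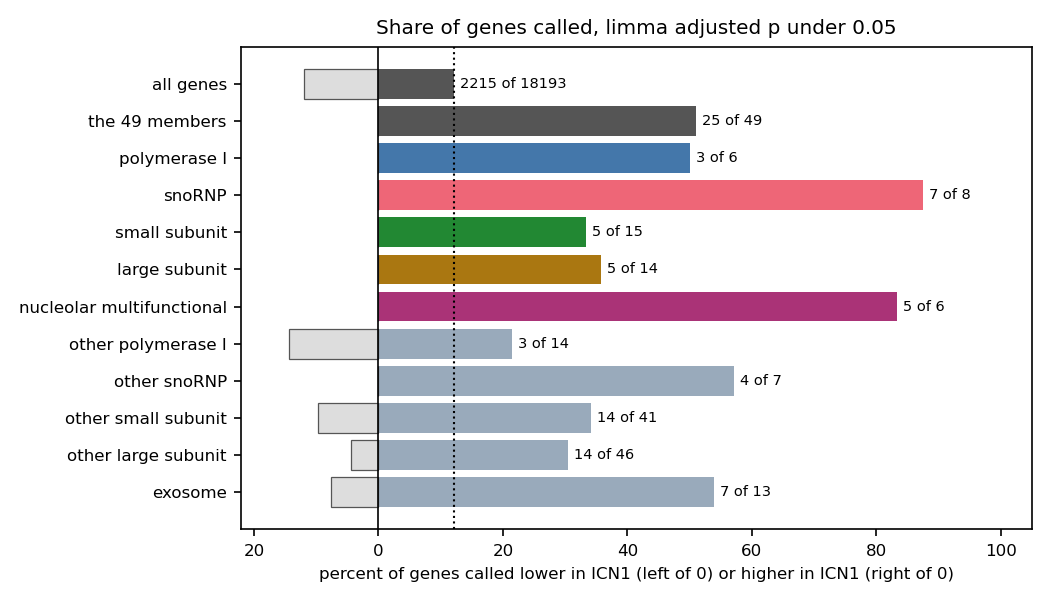
Percent of genes called higher (right of 0) or lower (left of 0) in ICN1 at a limma adjusted p under 0.05, for all genes, the 49 genes, their classes and the other genes of the pathway, with a dotted line at 12.2%. The snoRNP bar is the longest at 87.5%, and no bar of the 49 genes extends to the left; with CD3 centring, not drawn, 48 of the 49 and 62.7% of all genes were called higher, and 0 of the other pathway genes and 4.33% of all genes lower.

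The 49 genes varied together between arrays of a group. ICN1 3 was the highest ICN1 array for 44 genes and ICN1 2 the lowest for 43, while TEL-JAK2 4 was the highest TEL-JAK2 array for 33 and TEL-JAK2 3 the lowest for 31. The mean deviation of the 49 genes from their own means over the 7 arrays was 0.41, 0.16 and 0.71 in ICN1 and -0.47, -0.18, -0.56 and -0.08 in TEL-JAK2. The spread within groups was wider than for genes at large, with a median SD of 0.30 in ICN1 and 0.26 in TEL-JAK2, against 0.18 and 0.16 over all genes. ICN1 2, the lowest of its group, and TEL-JAK2 4, the highest of its group, were the nearest pair of arrays from different groups, 0.16 against -0.08.

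Myc, a known activator of many genes of this pathway, measured 10.86, 10.63 and 11.32 in ICN1 and 9.59, 9.89, 9.39 and 10.26 in TEL-JAK2 (1.16 ± 0.25, adjusted p = 0.0139). The groups did not overlap. The order of the 7 arrays by Myc was the order by the mean deviation of the 49 genes, with ICN1 3 first, then ICN1 1, ICN1 2, TEL-JAK2 4, TEL-JAK2 2, TEL-JAK2 1 and TEL-JAK2 3. ICN1 2 and TEL-JAK2 4, neighbours in this order, lay closer in Myc than the highest and lowest arrays of either group. The order is given as a description. All ICN1 arrays were above all TEL-JAK2 arrays for 15.9% of all genes, and the share of genes with this full order was not counted.

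**Figure D4:**
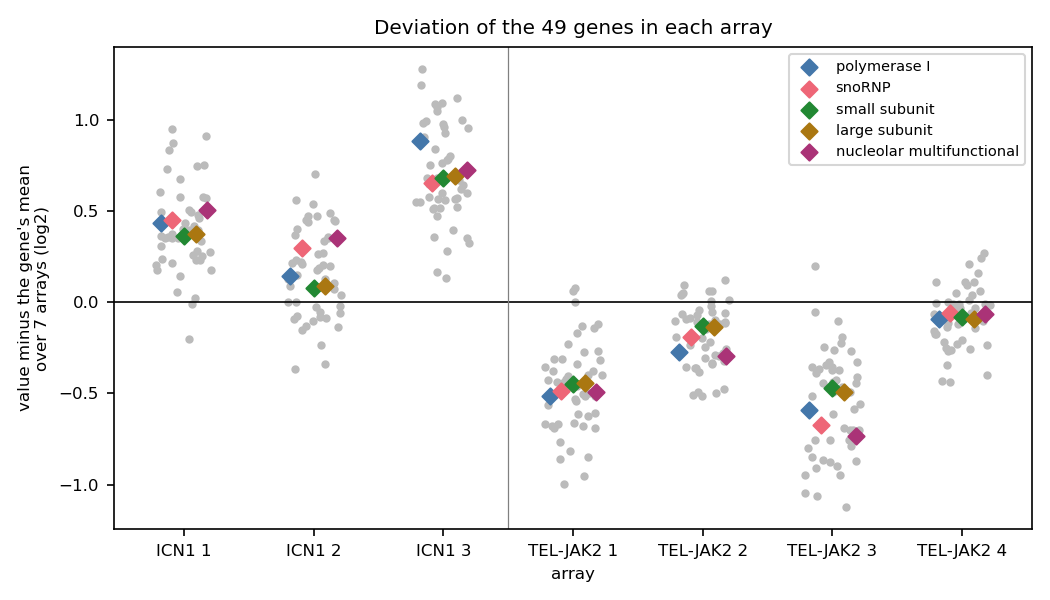
Value of each of the 49 genes minus its own mean over the 7 arrays (log2, y axis) in every array (x axis), with grey points for genes and diamonds for the mean of each class. All class means were above 0 in the ICN1 arrays and below 0 in the TEL-JAK2 arrays, with ICN1 3 highest and TEL-JAK2 3 lowest.

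Other genes of the pathway, from a list of 126 of which 121 were measured, moved less uniformly. Of these, 42 were called higher in ICN1 (34.7%, against 12.2% of all genes), 9 lower (against 11.9%) and 70 not, with a median difference of 0.40. By role, 3 of 14 polymerase I genes were called higher and 2 lower. The counts were 4 and 0 of 7 for snoRNP assembly, 14 and 4 of 41 for the small subunit, 14 and 2 of 46 for the large subunit, and 7 and 1 of 13 for the RNA exosome, which trims precursor ends. With CD3 centring, 101 were called higher (against 62.7% of all genes) and 0 lower (against 4.33%). Because it adds the same 0.62 to every difference, a gene called lower can lose its call or its sign by construction.

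Taf1d, a subunit of the promoter selectivity factor that brings polymerase I to ribosomal DNA, was 3.40-fold higher in ICN1. It measured 10.57, 10.52 and 10.73 in ICN1 and 8.75, 8.74, 8.63 and 9.26 in TEL-JAK2, with no overlap (1.76 ± 0.16, adjusted p = 0.000471). Polr2h, a subunit shared by the nuclear polymerases, was called higher (0.57 ± 0.15, adjusted p = 0.0305) but not without any 1 array except ICN1 2 and TEL-JAK2 2 (adjusted p from 0.0527 to 0.0818). Taf1c, of the same selectivity factor as Taf1d, was called lower (-0.53 ± 0.11, adjusted p = 0.0129). It was at 0.09 with CD3 centring, which adds 0.62 to every gene. Polr1f, listed as Twistnb, was called lower (-0.45 ± 0.12, adjusted p = 0.0324), and was at 0.17 with that same shift. Polr1f lost its call without any 1 array except ICN1 3 and TEL-JAK2 4 (adjusted p from 0.0708 to 0.0923), with median centring (0.0541) and with the mean of its probe sets (0.287).

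Among the assembly factors of snoRNPs, Shq1, the chaperone of Dkc1, differed by 0.92 ± 0.16 (adjusted p = 0.00651), and Ruvbl2, an ATPase of box C/D assembly, by 0.93 ± 0.18 (adjusted p = 0.0102), both called higher. In the small subunit, Nol11 (0.86 ± 0.13, adjusted p = 0.00341) and Krr1 (0.59 ± 0.10, adjusted p = 0.00471) were called higher. Rrp36 was called lower (-0.47 ± 0.08, adjusted p = 0.00676), and was at 0.15 with CD3 centring, which adds 0.62 to every gene. Bms1, a GTPase of the small subunit processome, was called lower (-1.21 ± 0.18, adjusted p = 0.00369) through a probe set whose name marks it as shared between transcripts, while it was at 0.17 (adjusted p = 0.626) without such probe sets. It was also not called with the mean of its probe sets (-0.52, adjusted p = 0.0992). With the shift of CD3 centring, Bms1 was at -0.59 (adjusted p = 0.0693).

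In the large subunit, the ATPase Nvl (0.73 ± 0.09, adjusted p = 0.00133) and Pelp1 (0.65 ± 0.10, adjusted p = 0.00322) were called higher, but Pelp1 was not called with the mean of its probe sets (0.36, adjusted p = 0.0566). Without probe sets marked as shared between transcripts, Pelp1 was at 0.076 (adjusted p = 0.783). Nop53 (-0.76 ± 0.10, adjusted p = 0.00205) and Zfp622 (-0.70 ± 0.09, adjusted p = 0.00211) were called lower. With CD3 centring, which adds 0.62 to every gene, they were at -0.13 (adjusted p = 0.535) and -0.073 (adjusted p = 0.684). In the exosome, the nuclease Dis3 (1.08 ± 0.16, adjusted p = 0.00369) and the cap subunit Exosc2 (0.73 ± 0.09, adjusted p = 0.00176) were called higher. Exosc4, of the exosome ring, was called lower (-0.50 ± 0.12, adjusted p = 0.0188), and was at 0.12 with that same shift. Exosc4 lost its call without TEL-JAK2 1 or TEL-JAK2 2 (adjusted p from 0.0501 to 0.0507).

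Markers of other cell types and of division moved with the groups too. Of 10 measured erythroid genes, 8 were called higher in ICN1, and their mean level ran from 11.06 to 11.33 in ICN1 and from 5.44 to 5.85 in TEL-JAK2. The red cell anion exchanger Slc4a1, for example, averaged 13.84 ± 0.26 over the 3 ICN1 arrays and 5.07 ± 0.56 over the 4 TEL-JAK2 arrays (SD). Of 11 granulocyte genes 5 were called higher (list mean 6.08 to 7.80 against 5.16 to 5.61), as were 5 of 10 monocyte and macrophage genes (8.86 to 10.24 against 6.43 to 8.61). All 11 proliferation genes were called higher, with a median difference of 2.01 (11.49 to 11.66 against 9.05 to 10.001). Of 10 T lineage genes, 7 were called lower and 1, Cd5, higher (11.40 to 11.55 against 12.002 to 12.12), and CD3 centring removes by construction the mean shift of the 4 CD3 genes among them. The B lineage list had 0 of 9 called higher and 1 lower, and the thymic epithelial list 0 of 8 higher and 2 lower.

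Within ICN1, the order of the arrays differed between these lists and the ribosome biogenesis genes. ICN1 3, where the 49 genes were highest, had the lowest mean of the 3 ICN1 arrays for the erythroid, granulocyte, monocyte and macrophage, and proliferation lists. The T lineage and B lineage lists were also lowest in ICN1 3, and the thymic epithelial list in ICN1 2. Within TEL-JAK2, TEL-JAK2 3 was lowest for these first 4 lists and for the 49 genes. The monocyte and macrophage list had the same full order of TEL-JAK2 arrays as the 49 genes. Its mean deviations were 0.08 in TEL-JAK2 4, -0.12 in TEL-JAK2 2, -1.35 in TEL-JAK2 1 and -2.10 in TEL-JAK2 3. The erythroid, granulocyte and proliferation lists had other orders. The part of other cell types and of division in the differences of the 49 genes was not tested.

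**Figure D5:**
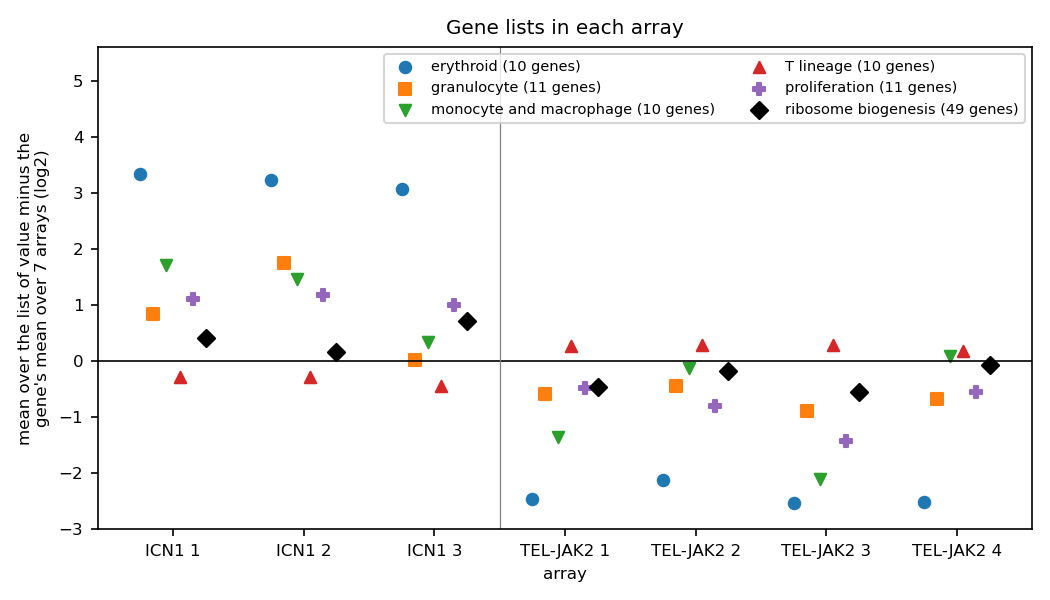
Mean over each gene list of the value minus the gene's own mean over the 7 arrays (log2, y axis) in every array (x axis), for 5 marker lists and the 49 ribosome biogenesis genes (black diamonds). The erythroid list shows the widest gap between the groups, and ICN1 3 is the highest ICN1 array for the diamonds and the lowest for the erythroid and proliferation lists.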

How the data were processed

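RNA of 7 suspensions was hybridised to Affymetrix arrays. The deposited log2 values come from RMA, per the submitters' processing notes; the version, settings and genome build were not given in the labels used here. Because RMA makes the distributions of the arrays alike, total RNA cannot be compared. Of 45037 probe sets, 34945 had 1 symbol in the platform annotation, 932 several and 9160 none, and 0 columns were left unused. Groups were fitted two-sided with lmFit and eBayes of limma 3.58.1 (R 4.3.3), without trend or covariate, on all 7 arrays, and the code was tested on simulated data. Array values are given for the 3 called genes of each class with the smallest adjusted p, the 1 with the largest, and counts of 5 or fewer, with some others singled out after their values were seen; of other pathway genes, up to 2 per class and direction are named. The genes and lists were chosen with earlier results of these data known. Alternatives changed the probe set rule, filter, scaling, variance model, test, threshold and arrays. Promoter windows are RefSeq's, GRCm38.p6; AAGATGG and GCATGCG replaced longer forms after a first search. The number of arrays limits the precision.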

Additional observations from a re-analysis of the deposited data

Results flagged for a closer look

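In the group of 4 TEL-JAK2 arrays, 2 of the 49 genes had 1 array far from the rest, by Dixon's criterion, which sets its gap to the nearest array against the range. Chance alone flags about 1 in 20 groups, and 2 of 49 is near that share. Noc3l was at 7.497 in TEL-JAK2 2, above the nearest other array at 7.301, and the gap was 0.939 of the range. Pa2g4 was at 9.744 in TEL-JAK2 3, below the nearest other array at 10.15, and the gap was 0.870 of the range. The group of 3 ICN1 arrays is too small for this criterion.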

How the results depend on the processing

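Of the 49 genes, 25 were called higher in the fit reported and 0 lower, and 0 were called lower under any of the 20 alternatives run. With CD3 centring, 48 genes were called higher (against 62.7% of all genes), with a median difference of 1.31. A per-gene Welch test called 8 (against 4.88%). Limma treat against 1.5-fold called 3 (against 3.69%), and 10 were called at an adjusted p under 0.01 (against 6.62%). CD3 centring added the same 0.62 to the difference of every gene, and calls over all genes went from 2215 higher and 2165 lower to 11410 and 787. The count of the 49 genes above the median of all genes, 48, cannot change under such a shift. Leaving out each array in turn gave counts from 16 to 30 and medians from 0.51 to 0.81. In these fits 9.26% to 11.4% of all genes were called higher. Leaving out ICN1 1 and ICN1 2 together, chosen after seeing the data, left ICN1 3 as the only ICN1 array. The median was then 0.98, with ICN1 3 being the highest of the 7 arrays for 43 of the 49 genes. The other alternatives gave counts from 25 to 32 (against 10.5% to 21.2% of the genes tested). Signs turned for Polr1e (-0.011 with quantile normalization again, -0.040 with median centring, -0.086 with array weights, -0.069 without TEL-JAK2 3, and from -0.267 without ICN1 3 to 0.183 without ICN1 2) and Imp3 (0.50 with CD3 centring, from -0.221 without ICN1 3 to 0.030 without ICN1 2, and 0.086 without ICN1 1 and 2). They also turned for Bms1 (0.17 without shared probe sets) and, with CD3 centring, for Taf1c (0.089), Polr1f, listed as Twistnb (0.17), Rrp36 (0.15) and Exosc4 (0.12). A stricter threshold and a test against a fold lower counts by construction, and CD3 centring moves every difference by the same amount. The cause of the other changes was not tested. No paired analysis was possible because the titles carry identifiers and no replicate number shared between the groups.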
